A study of Mus musculus with 6 samples.

Results

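The 4 genes described here encode the DNA-binding RUNX transcription factors (Runx1, Runx2 and Runx3) and CBF beta (Cbfb), the partner they share. They were chosen by symbol, and all 4 were found among the 36870 symbols of the expression table and among the 13266 genes tested, those averaging 0.1 RPKM or more (RPKM is a read number scaled to transcript length and library size). The samples were bone marrow mesenchymal stem cells (BMMSCs) from C57BL/6 mice, labelled as passage 2, whereas the study's methods give the first passage. Total RNA from 3 control cultures, given non-targeting siRNA according to the labels and called vehicle in the study's RNA-seq methods, was compared with that from 3 cultures given siRNA to Tet1 and Tet2, enzymes that oxidise 5-methylcytosine. No deletion or transgene was carried by either group, and the age of the mice was not given for these cells. The cells were the plastic-adherent fraction of marrow, cultured for 14 days after non-adherent cells were removed at 48 h. Nothing in the labels says whether the 3 cultures of a group came from separate animals, so the spread between them may be partly technical.

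RUNX proteins bind DNA through the Runt domain, and CBF beta, which does not contact DNA itself, strengthens that binding and protects RUNX proteins from degradation. RUNX2 is required for osteoblast formation, RUNX1 for the emergence of blood stem cells and for myeloid and megakaryocytic genes, and RUNX3 acts in T cells, natural killer cells and myeloid cells. Runx1 and Runx2 are also transcribed in stromal and skeletal cells, so none of the 3 marks a single lineage in marrow.

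The promoters of the members are shown first because the Runt domain recognises TGTGGT, read as ACCACA on the opposite strand, and TGCGGT, likewise read as ACCGCA, and because the enzymes targeted here act on CpG methylation. RefSeq starts (GRCm38.p6) gave 6 windows for the 4 genes, each covering 250 bases before and 50 bases after a start. At least 1 of these motifs was present in 3 of the 6 windows, against 22.4% of 32851 windows of the same length over all genes. The 3 were the upstream windows of Runx1, Runx2 and Runx3, with 2, 4 and 2 motifs in 300 bases. In Runx3 both lay before the start, in Runx2 1 of them did, and in Runx1 none did. The windows at the internal start of Runx1, the internal start of Runx3 and the start of Cbfb held none. CpG content split the windows in the same way. The upstream windows of Runx1, Runx2 and Runx3 held 2, 2 and 8 CpGs, the internal windows of Runx1 and Runx3 held 35 and 45, and the Cbfb window held 30, against a median of 7 over all windows. Below are the 250 bases before the start of Runx2, before both starts of Runx3 and before Mmp13, a collagenase gene that RUNX2 activates, 5' to 3' on the strand of each gene, with the motifs in capitals. Mmp13 is a single example, and the motifs over all windows of its list are given further below. The part of the Runx2 window up to 44814797 falls within the bounds that GENCODE M21 gives the gene.
Runx2, chr17:44814628-44814877, minus strand: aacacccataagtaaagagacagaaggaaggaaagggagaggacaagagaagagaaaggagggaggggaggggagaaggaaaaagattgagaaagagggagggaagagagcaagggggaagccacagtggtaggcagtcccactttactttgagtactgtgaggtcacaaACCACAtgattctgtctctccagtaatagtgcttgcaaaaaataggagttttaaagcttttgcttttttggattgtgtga
Runx3 upstream start, chr4:135120395-135120644, plus strand: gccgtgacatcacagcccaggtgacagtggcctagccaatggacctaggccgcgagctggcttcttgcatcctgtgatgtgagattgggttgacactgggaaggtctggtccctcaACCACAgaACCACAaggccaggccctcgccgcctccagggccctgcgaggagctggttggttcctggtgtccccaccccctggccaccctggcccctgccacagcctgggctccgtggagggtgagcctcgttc
Runx3 internal start, chr4:135152295-135152544, plus strand: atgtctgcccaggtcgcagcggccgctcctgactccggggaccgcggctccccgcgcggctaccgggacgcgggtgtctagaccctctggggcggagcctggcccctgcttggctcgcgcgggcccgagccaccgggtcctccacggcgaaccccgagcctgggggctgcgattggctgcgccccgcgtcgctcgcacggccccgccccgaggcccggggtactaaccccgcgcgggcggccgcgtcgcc
Mmp13, chr9:7272264-7272513, plus strand: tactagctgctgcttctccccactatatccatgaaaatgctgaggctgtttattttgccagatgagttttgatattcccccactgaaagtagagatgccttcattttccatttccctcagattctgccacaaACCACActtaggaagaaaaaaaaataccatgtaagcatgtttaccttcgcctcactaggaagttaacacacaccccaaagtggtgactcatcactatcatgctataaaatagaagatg
Counted from the start, the Runx2 motif began at -80, the 2 Runx3 motifs at -134 and -126 of the upstream start, and the Mmp13 motif at -118. Runx2 was covered by its upstream window only, although GENCODE M21 lists 13 transcripts of it, so other Runx2 starts were not examined. The expression table has 1 value per gene, so transcripts from different starts of a gene were not separated. Neither methylation nor RUNX binding was measured in these samples.

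For the knockdown target Tet2 the control libraries gave 2.573, 4.081 and 3.706 RPKM and the Tet1 and Tet2 siRNA-treated libraries 0.358, 0.238 and 0.202 RPKM (log2 fold change -1.80, limma adjusted p = 2.88e-05). Tet1 was at 0.032 to 0.098 RPKM in the control libraries and at no more than 0.01 RPKM in the treated ones, too low for the test, and Tet3 was not called (limma adjusted p = 0.508). Estimated depth was 32400000 to 38500000 reads per library. The label BMMSC was checked against markers. Of 15 stromal markers 12 were tested and 9 fell, where 29.8% of all genes tested were lower. The summed level of the 15 was 397.5 to 487.4 RPKM in control and 54.3 to 97.0 RPKM in treated libraries. Col3a1, a fibrillar collagen, fell from 124.6 ± 31.3 to 14.1 ± 5.43 RPKM, Ly6a (Sca1) from 152.2 ± 18.0 to 16.4 ± 6.01 RPKM and the collagen Col5a1 from 40.1 ± 10.0 to 11.1 ± 4.61 RPKM (SD, n = 3), while Thy1 (CD90) was at or below 0.146 RPKM in every library. Macrophage markers summed to 8301 to 11094 RPKM in control and 16392 to 19464 RPKM in treated libraries. Of the 17 markers, 8 rose and 4 fell, where 14.7% of all genes tested were higher and 29.8% lower. Without Lyz2, a sum chosen after seeing the data, the other 16 came to 4754 to 6080 RPKM in control and 6550 to 6892 RPKM in treated libraries, so most of the difference in the sum was Lyz2. The lysozyme gene Lyz2 rose from 4439 ± 783 to 11321 ± 1444 RPKM, the Fc receptor gene Fcgr1 fell from 109.1 ± 10.0 to 27.8 ± 2.53 RPKM, and the complement genes C1qb and C1qc were not called (limma adjusted p = 0.287 and 0.283). Ptprc (CD45), which marks hematopoietic cells, was at 52.6 ± 4.57 RPKM in control and 53.0 ± 6.04 RPKM in treated libraries. Both groups thus contained abundant macrophage transcripts beside stromal ones, and all values below are for such mixed RNA. In bulk RNA fewer cells of a type and less of a transcript per cell cannot be told apart.

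Runx2, the osteoblast RUNX, fell and had the largest fold change of the 4. The 3 control libraries gave 1.168, 1.821 and 2.105 RPKM, and the 3 treated libraries 0.134, 0.166 and 0.109 RPKM. The lowest control library was above every treated library. The mean fell from 1.70 ± 0.480 to 0.136 ± 0.0286 RPKM (SD, n = 3), a ratio of means of 12.5. On the log2(RPKM + 1) scale, which understates changes of genes near or below 1 RPKM, the fold change was -1.23 (SE 0.13, limma adjusted p = 0.000133). Runx2 is located at chr17:44495987-44814797 on the minus strand (GRCm38, GENCODE M21). With its longest transcript of 6463 bases, the level corresponds to an estimated 283 to 441 reads in control and 25 to 41 reads in treated libraries.

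Runx3, at chr4:135120652-135177990 on the plus strand, fell as well. Control libraries held 2.391, 2.416 and 2.618 RPKM and treated libraries 0.427, 0.816 and 0.853 RPKM, without overlap. The first treated library was the lowest, and the other two were close to each other. The mean fell from 2.48 ± 0.124 to 0.699 ± 0.236 RPKM, a ratio of means of 3.54, and the log2 fold change was -1.04 (SE 0.11, limma adjusted p = 0.000167).

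Runx1, at chr16:92601466-92826149 on the minus strand, was the most abundant RUNX transcript and was not called. Control libraries held 11.852, 13.444 and 14.922 RPKM and treated libraries 11.59, 11.103 and 13.558 RPKM. The groups overlapped, with the third treated library above the first and second control libraries. The means were 13.4 ± 1.54 and 12.1 ± 1.30 RPKM (SD, n = 3), and the log2 fold change was -0.14 (SE 0.11, limma adjusted p = 0.316) and a 95% interval of -0.38 to 0.10, which excludes a change of the size of Runx2 or Runx3 on this scale.

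Cbfb, at chr8:105170674-105217989 on the plus strand, was the most abundant of the 4 and was slightly lower after knockdown. Control libraries held 52.585, 56.963 and 56.282 RPKM and treated libraries 46.008, 46.089 and 51.385 RPKM. The groups did not overlap, although the third treated library was close to the first control library. The means were 55.3 ± 2.36 and 47.8 ± 3.08 RPKM, 13.5% lower after knockdown, and the log2 fold change was -0.21 (SE 0.07, limma adjusted p = 0.0360). This call was lost when Control replicate 2 (limma adjusted p = 0.122), siTet1/Tet2 replicate 1 (0.128) or siTet1/Tet2 replicate 2 (0.132) was left out, and under median-ratio (0.212), quantile (0.228) or Gapdh scaling (0.328).

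**Figure D1:**
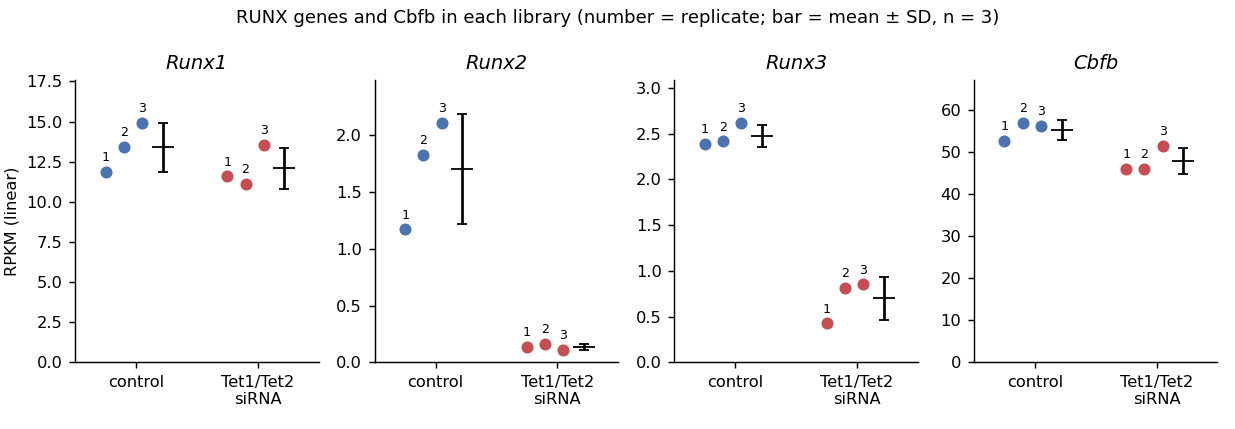
RPKM of Runx1, Runx2, Runx3 and Cbfb in each of 3 control and 3 Tet1 and Tet2 siRNA-treated libraries, with bars at the group means and their SD. The groups of Runx2 and Runx3 are separate by more than their spread, those of Cbfb are separate by a narrow margin, and those of Runx1 overlap.

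Of the 4 members, 3 were called lower at an adjusted p under 0.05, against 29.8% of all genes tested, and none higher, against 14.7%. Under quantile scaling the lower and higher calls over all genes were 2627 and 3607, in place of 3952 and 1953, and Runx2 and Runx3 were still called lower. Runx2 and Runx3 also had an unadjusted p under 0.05 with a change over 2-fold on the log2(RPKM + 1) scale, which 5.63% of genes met downward and 0.95% upward. On that scale a low gene needs more than a 2-fold change of its RPKM to be counted. In 3 members every treated library was below every control library, as in 35.9% of genes, and in no member were they all above, as in 19.8%. The order of levels per length was Cbfb, Runx1, Runx3 and Runx2 in both groups, and no neighbours in that order overlapped within either group.

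Since a ratio of 2 genes in 1 library is free of library scaling, the composition of the family was computed within each library. Runx1 made up 76.9%, 76.0% and 76.0% of summed RUNX RPKM in the control libraries and 95.4%, 91.9% and 93.4% in the treated ones. Runx2 made up 7.58%, 10.3% and 10.7% in the control libraries and 1.10%, 1.37% and 0.751% in the treated ones. Runx3 made up 15.5%, 13.7% and 13.3% and then 3.51%, 6.75% and 5.87%. Runx1 was thus a larger share of RUNX transcripts after knockdown, with no overlap between groups for any of the 3 shares. Each difference had an exact permutation p = 0.1, the smallest that 3 against 3 libraries can give. The 3 shares add up to the whole in each library, so they are not separate results. A larger share of Runx1 follows from the smaller shares of Runx2 and Runx3, and the level of Runx1 itself was not called. Summed RUNX was 17.6 ± 2.12 RPKM in control and 12.9 ± 1.39 RPKM in treated libraries, and Cbfb per summed RUNX was 3.17 ± 0.278 and 3.71 ± 0.151 (SD, n = 3, exact permutation p = 0.1 for both).

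**Figure D2:**
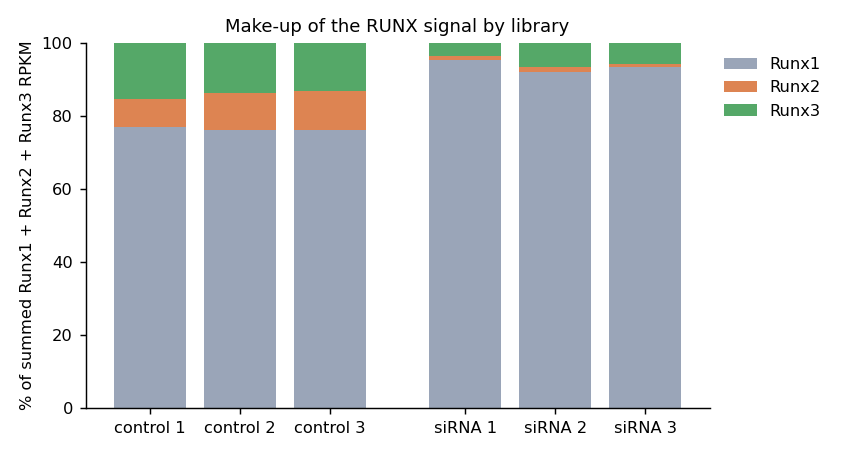
Percent of summed RUNX RPKM contributed by Runx1, Runx2 and Runx3 in each of the 6 libraries. Runx1 is at 76.0% to 76.9% in the control libraries and at 91.9% to 95.4% in the treated ones.

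All 6 pairs of members were compared as log2 ratios. The ratio of Runx1 to Runx2 was 10.1, 7.38 and 7.09 in the control libraries and 86.5, 66.9 and 124.4 in the treated ones. That of Runx1 to Runx3 was 4.96, 5.56 and 5.70 and then 27.1, 13.6 and 15.9. Runx2 was also lower relative to Runx3, going from 0.488, 0.754 and 0.804 to 0.314, 0.203 and 0.128. The differences in log2 ratio were 3.37 for Runx1 over Runx2, 1.72 for Runx1 over Runx3, -1.65 for Runx2 over Runx3, -3.31 for Runx2 over Cbfb and -1.66 for Runx3 over Cbfb (each exact permutation p = 0.1, adjusted p = 0.12). The ratio of Cbfb to Runx1 was 4.44, 4.24 and 3.77 in the control libraries and 3.97, 4.15 and 3.79 in the treated ones, with overlapping groups (log2 difference of Runx1 over Cbfb 0.06, exact permutation p = 0.5). The log2 differences used a pseudocount of 0.01 RPKM. With a pseudocount of 0.1 RPKM the Runx2 over Runx3 difference was -1.16 (exact permutation p = 0.1). With a pseudocount of 1 RPKM, near the levels of both genes, the Runx2 over Runx3 difference was -0.19 (exact permutation p = 0.3), and those of Runx1 over Runx2, Runx1 over Runx3, Runx2 over Cbfb and Runx3 over Cbfb were 1.09, 0.90, -1.03 and -0.84 (each exact permutation p = 0.1).

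**Figure D3:**
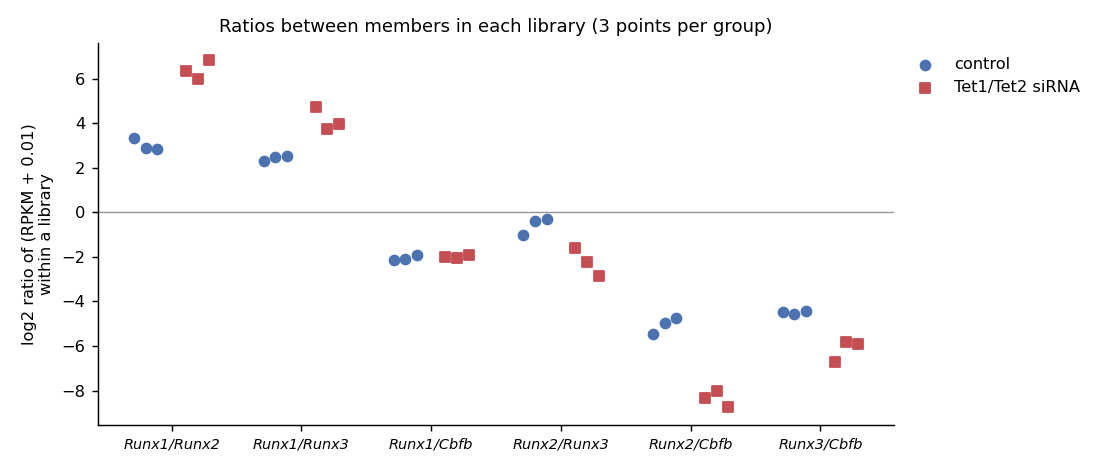
Log2 ratio of RPKM for the 6 pairs of members in each library, with a pseudocount of 0.01 RPKM. Pairs that hold Runx2 or Runx3 separate the groups, and the Runx1/Cbfb pair does not.

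The members were next set against the markers of the 2 cell types seen in these libraries, as the log2 level of the member minus the mean log2 level of the tested markers. The stromal mean (12 genes) differed by -1.93 on the log2 scale between treated and control libraries. Relative to it Runx3 was at -2.31, -2.15 and -2.36 in control and -2.48, -1.92 and -2.25 in treated libraries, a difference of 0.06 with overlapping groups (exact permutation p = 0.8). Runx2 was at -3.34, -2.55 and -2.67 in control and -4.08, -4.15 and -5.10 in treated libraries, a difference of -1.59 beyond that of the stromal mean, without overlap (exact permutation p = 0.1). Runx1 and Cbfb were higher relative to the stromal mean by 1.78 and 1.72. At this pseudocount the level of Runx3 thus kept its distance from the stromal mean within the spread between libraries. That of Runx2 was farther below this mean in every treated library. The single markers differed widely, with ratios of control over treated means from 1.27 for Mcam to 10.5 for Pdgfra, against 12.5 for Runx2. With a pseudocount of 1 RPKM, Runx2 was 0.42 higher relative to the stromal mean (exact permutation p = 0.2) and Runx3 0.61 higher (exact permutation p = 0.1). The contrast between Runx2 and Runx3 relative to the stromal mean thus depended on how low values are treated. A pseudocount of 1 RPKM is larger than every treated value of both genes. The macrophage mean (17 genes) was higher by 0.22. Against it Runx1 differed by -0.37 with overlapping groups (exact permutation p = 0.2), Cbfb by -0.43, Runx3 by -2.09 and Runx2 by -3.74, the last 3 without overlap (exact permutation p = 0.1), and with a pseudocount of 1 RPKM Runx3 differed by -1.22 and Runx2 by -1.41. Against the median of the macrophage markers, Runx1 and Cbfb were higher, by 0.13 and 0.065. The part of cell composition in the fall of Runx2 and Runx3 was not tested.

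**Figure D4:**
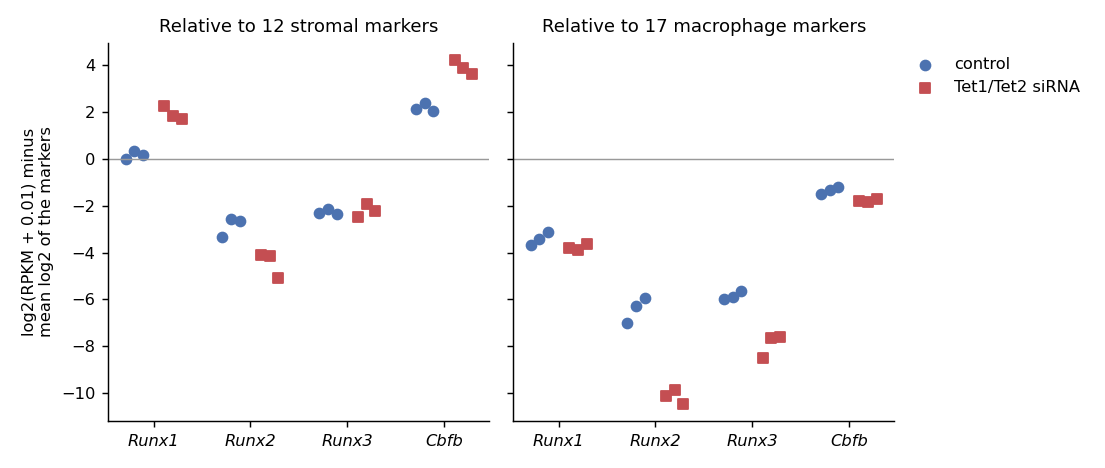
Log2 level of each member minus the mean log2 level of stromal or macrophage markers in each library, with a pseudocount of 0.01 RPKM. Relative to stromal markers the groups overlap for Runx3 and are separate and lower after knockdown for Runx2.

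Among 15 coactivators and DNA-binding partners of RUNX proteins, 8 were lower (29.8% of all genes tested were), 1 was higher (14.7% of all genes were) and 6 were not called, with a median log2 fold change of -0.27 against -0.09 over all genes tested. The Hippo pathway coactivator Wwtr1 (TAZ), which binds RUNX2, was at 6.025, 6.095 and 7.125 RPKM in control and 1.605, 2.227 and 3.232 RPKM in treated libraries (log2 fold change -1.17, limma adjusted p = 0.000771). Its paralog Yap1 fell from 8.46 ± 1.26 to 3.34 ± 0.972 RPKM (-1.14). Ets1, which binds DNA beside RUNX1, fell from 7.17 ± 0.887 to 3.54 ± 0.308 RPKM, Cebpd, a bZIP factor, from 11.3 ± 1.03 to 6.64 ± 0.692 RPKM, and Prmt1, an arginine methyltransferase, from 75.1 ± 10.6 to 47.3 ± 2.93 RPKM (SD, n = 3). The single higher gene was Cebpb, at 76.7 ± 5.40 and 87.5 ± 0.814 RPKM (limma adjusted p = 0.0451), chosen for naming after its value was seen. No gene of the list was called higher under TPM or Gapdh scaling, without the filter or the trend, or when any library other than Control replicate 3 was left out. The acetyltransferase gene Ep300, the most abundant of those not called, was at 14.3 ± 2.06 and 15.2 ± 0.910 RPKM (limma adjusted p = 0.493).

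The 24 corepressors and inhibitors were lower in 7 cases, higher in 5 and not called in 12, near the 29.8% lower and 14.7% higher over all genes tested, with a median log2 fold change of -0.04. Under quantile scaling 8 were higher. Hey1, a Notch target that represses RUNX2 activity, rose from 1.27 ± 0.0810 to 6.47 ± 0.852 RPKM (1.72, limma adjusted p = 1.10e-05). Twist1 and Twist2, whose products block the Runt domain of RUNX2, fell from 7.15 ± 0.429 to 1.89 ± 0.894 RPKM and from 2.53 ± 0.701 to 0.337 ± 0.0172 RPKM (-1.54 and -1.38). Runx1t1 (ETO), a corepressor known as the partner of RUNX1 in a leukemic fusion, fell from 0.417 ± 0.0399 to 0.0510 ± 0.0139 RPKM (limma adjusted p = 0.000553). Aes, a Groucho-related gene, was at 229.1 ± 19.0 and 249.7 ± 9.09 RPKM and was not called (limma adjusted p = 0.215).

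Of 23 genes that RUNX2 is known to activate in skeletal cells, mostly osteoblasts (here osteoblast targets), 18 were tested. Of these, 13 fell, 1 rose and 4 were not called, against 29.8% lower and 14.7% higher over all genes. Their median log2 fold change was -0.87. Col1a1, the main collagen of bone, was at 416.3, 394.2 and 654.7 RPKM in control and 48.4, 64.2 and 103.7 RPKM in treated libraries (-2.78), and Col1a2 fell from 436.9 ± 96.4 to 76.4 ± 29.9 RPKM (-2.55). Alpl, tissue-nonspecific alkaline phosphatase, fell from 3.86 ± 0.411 to 0.421 ± 0.167 RPKM (-1.78), and Mmp13, whose promoter is shown above, from 17.2 ± 0.165 to 6.20 ± 0.182 RPKM (-1.34). Vegfa, an angiogenic factor, fell from 28.0 ± 4.38 to 11.1 ± 2.33 RPKM (-1.27). The collagen genes are also transcribed by stromal cells at large, and the stromal markers fell beside this list, by a median of -1.66. Spp1 (osteopontin), the most abundant gene not called, was at 2346 ± 18.0 and 1967 ± 122.1 RPKM (limma adjusted p = 0.0857), although every treated library was below every control library, and Spp1 is also a macrophage product. The single gene that rose was Dmp1, an osteocyte matrix gene, from 0.0227 ± 0.0225 to 0.424 ± 0.117 RPKM, named after its value was seen. RUNX motifs were in 5 of the 26 windows on hand for this list (19.2%), which cover 18 of its 23 genes, tested or not, near the share of all windows. These were windows of Mmp13, which fell, Bglap and Spp1, which were not called, Dmp1, which rose, and Ihh, which was not tested. The windows of Alpl, Col1a2 and Vegfa, which fell, held none. Bglap was low, at 0.251 ± 0.162 and 0.0960 ± 0.0521 RPKM. Bglap2, listed beside it but without a window on hand, fell from 1.75 ± 0.768 to 0.346 ± 0.244 RPKM (limma adjusted p = 0.00420). Bglap2 was named after its value was seen.

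Of 22 genes regulated by RUNX1 or RUNX3 in blood cells, 12 were tested, 7 rose, 2 fell and 3 were not called, where 14.7% of all genes were higher and 29.8% lower, with a median log2 fold change of 0.48. Pf4, a platelet chemokine that macrophages also transcribe, was at 284.0, 241.4 and 179.8 RPKM in control and 540.2, 646.3 and 623.2 RPKM in treated libraries (1.38). Cd4 rose from 2.56 ± 0.146 to 8.06 ± 0.573 RPKM (1.35), the myeloid factor gene Cebpa from 110.2 ± 4.33 to 256.5 ± 10.5 RPKM (1.21), the G-CSF receptor gene Csf3r from 6.92 ± 0.0925 to 15.0 ± 1.15 RPKM (1.01) and the integrin gene Itgal from 26.1 ± 0.465 to 48.2 ± 0.678 RPKM (0.86). Those that fell were Cdkn1a, a cell cycle inhibitor, from 189.9 ± 10.3 to 109.6 ± 5.88 RPKM and Zbtb7b, a T cell factor, from 25.8 ± 1.22 to 20.8 ± 0.569 RPKM, both named after their values were seen. Spi1 (PU.1), a direct RUNX1 target, was at 195.6 ± 12.8 and 208.9 ± 3.83 RPKM and was not called (limma adjusted p = 0.275). The genes that rose did so while Runx1 was not called and Runx3 fell. The summed level of macrophage markers was higher in every treated library, with or without Lyz2. Single macrophage markers were mixed, as 8 of 17 rose, 4 fell and 5 were not called. Abundant markers weigh most in the sum, and Cd68 rose from 874.8 to 1316 RPKM and Tyrobp from 465.6 to 1164 RPKM. These 2 were named after their values were seen. The list of hematopoietic targets does not separate genes that RUNX proteins activate from those they repress, and the cause of the rises was not tested. Of 10 T and natural killer cell markers only Lck was tested and it was not called, and 3 were at the lowest listed value, 0.001 RPKM, in every library. RUNX motifs were in 25.0% of 20 windows of this list, in none of 13 windows of the coactivator list and in 15.0% of 20 windows of the corepressor list.

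**Figure D5:**
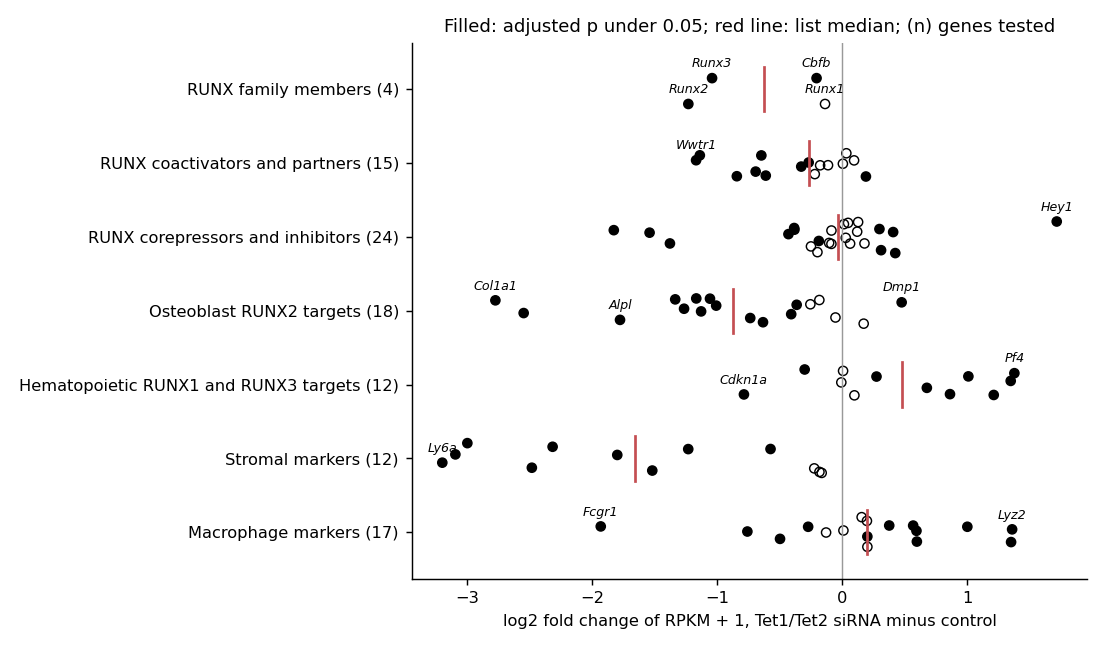
Log2 fold change on log2(RPKM + 1) of every tested gene of the family, of 4 lists of RUNX partners and targets and of 2 marker lists, with filled points at an adjusted p under 0.05 and a red line at the list median. Osteoblast RUNX2 targets are mostly left of 0, as are stromal markers, and hematopoietic targets mostly right of 0.

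The genes whose log2 levels tracked each member most closely over the 6 libraries were found among 11321 genes. These correlations are descriptions, since the points share libraries and the group difference. Taking the 3 highest r of 11321 genes over only 6 libraries also favours high values by selection alone. For Runx1 the genes were Rbbp6, Mef2a and Scaf11 (Pearson r = 0.9994, 0.9961 and 0.9959). Mef2a, a transcription factor gene, had means of 66.7 RPKM in control and 61.0 RPKM in treated libraries. For Runx2 they were Brms1l, Tvp23b and Nbea (r = 0.9983, 0.9982 and 0.9979), and Nbea had means of 1.01 and 0.235 RPKM. For Runx3 they were Lmcd1, Ripk2 and Rapgef5 (r = 0.9997, 0.9989 and 0.9988), with Lmcd1 at 3.85, 4.05 and 4.49 RPKM in control and 0.540, 1.10 and 1.21 RPKM in treated libraries, the same order of libraries as Runx3. For Cbfb they were Zfp36l1, Mthfd2l and Zrsr2 (r = 0.9961, 0.9959 and 0.9957).

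Runx2os2, an antisense gene at chr17:44710222-44713925 on the plus strand in an intron of Runx2, was looked at after its values were seen. It was at 1.465, 1.884 and 1.937 RPKM in control and 1.379, 1.327 and 1.573 RPKM in treated libraries, with overlapping groups (log2 fold change -0.18, limma adjusted p = 0.152), while Runx2 itself fell. Of its 818 exonic bases 0 are shared with Runx2 exons. Whether the libraries mark strand is not given, so reads of Runx2os2 and those from unspliced Runx2 RNA could not be told apart here.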

How the data were processed

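The authors deposited 1 table of RPKM values for 6 RNA-seq libraries, made from paired-end reads mapped to GRCm38 with DNASTAR Lasergene, together with a column of p-values that was not used. The annotation release, the treatment of multimapping reads and the strand setting are not given in the sources used here. The table held 36915 rows, of which 18360 were at the lowest listed value, 0.001 RPKM, in every library, and 27 symbols were plain numbers. In 51.0% to 57.6% of low values the RPKM steps came within 0.1 of whole reads, so depth and reads per gene are estimates and no count test was run.

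The 13266 genes averaging 0.1 RPKM or more were fitted with limma 3.58.1 in R 4.3.3 (trend, log2(RPKM + 1)) with Benjamini-Hochberg adjustment at 0.05, two-sided, after a check on simulated data. Calls (rose, fell, lower, higher) are at an adjusted p under 0.05. Ratios, shares and marker-relative levels used exact two-sided permutation tests over the 6 libraries (Python 3.11.15, scipy 1.17.1). Named were the members, Tet1 to Tet3, in each list the 5 largest called changes without overlap and the most abundant gene not called, the leading markers and the 3 most similar genes per member. A gene of the corepressor list that this rule names is not reported here. The members and lists were chosen with earlier results of these data known. Same-numbered control and treated libraries deviated together (correlations 0.149, 0.117 and 0.462), although Control 1 with treated 2 (0.332) and Control 2 with treated 1 (0.205) were higher than the same-numbered pairs 1 and 2, so the pairing is uncertain, and a replicate block was fitted as an alternative, beside other scalings, filters, pseudocounts and leaving out each library. Positions are from GENCODE M21 (GRCm38) and promoter windows from RefSeq (GRCm38.p6). Matching by motif was exact on both strands.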

Additional observations from a re-analysis of the deposited data

How the results depend on the processing

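Runx2 and Runx3 kept their direction and call under every alternative that gave a value (log2 fold change -3.52 to -1.06 in 16 alternatives and -1.87 to -0.82 in 17). Runx2 was removed by a filter of 1 RPKM, so it has no value there. Fitted with the replicate block, the log2 fold change of Runx2 was -1.23 (limma adjusted p = 6.89e-05) and that of Cbfb -0.21 (limma adjusted p = 0.0215), and the block changed no call of a member. Cbfb was no longer called with median-ratio scaling (-0.10, limma adjusted p = 0.212), quantile scaling (-0.12, 0.228), relative to Gapdh (-0.19, 0.328) or without the trend (-0.21, 0.0560), and leaving out a library gave -0.26 to -0.18. These moved the median of all genes from -0.09 to -0.01 (median ratio) and 0.06 (quantile), and the lower and higher calls from 3952 and 1953 to 3054 and 2737 and to 2627 and 3607. Under quantile scaling Runx1 was at 0.0049 and Runx2os2 at 0.057, opposite in sign to the reported value. Coactivators held 0 higher genes with no filter, TPM, Gapdh and no trend, and 0 to 1 without a library (1 only without Control replicate 3). Corepressors held 3 higher genes with TPM and Gapdh, 8 with quantile scaling and 3 to 6 without a library. Osteoblast targets held 0 higher genes at 1 RPKM, and hematopoietic targets 1 lower gene relative to Gapdh. Against stromal markers Runx2 was at 0.42 with a pseudocount of 1, and Runx3 at -0.093 to 0.19 without a library, the lowest without siTet1/Tet2 replicate 2. Against the median macrophage marker Runx1 was at 0.13 and Cbfb at 0.065. In these cases the cause was not tested. Runx2 in treated libraries rests on an estimated 25 to 41 reads.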

Other observations

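Markers of other cells found in marrow were mostly below the 0.1 RPKM minimum. Over all genes tested, 29.8% were lower and 14.7% higher. Of 6 neutrophil markers 2 were tested, and S100a8 rose from 1.95 ± 0.232 to 12.7 ± 3.44 RPKM while Camp fell from 1.45 ± 0.259 to 0.0580 ± 0.0987 RPKM (SD, n = 3), with S100a9 at the lowest listed value in every library. Both tested megakaryocyte markers of 4 rose, Ppbp from 0.188 ± 0.0452 to 0.864 ± 0.386 RPKM and Gp1ba from 0.192 ± 0.0178 to 0.463 ± 0.0266 RPKM. Among 3 tested endothelial markers Kdr fell and Pecam1 rose, of 2 tested chondrocyte markers Col2a1 fell from 4.99 ± 1.23 to 1.52 ± 0.714 RPKM, the only tested B cell marker Cd79b rose, and none of 5 mast cell markers was tested. These genes fall outside the naming rule and were named after their values were seen.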
